A study of Homo sapiens with 6 samples.

Results

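The 10 small nucleolar RNA (snoRNA) host genes SNHG1, SNHG3, SNHG5, SNHG6, SNHG7, SNHG8, SNHG12, SNHG15, GAS5 and ZFAS1 were examined as targets of Myc in MDA-MB-231 cells, a human triple-negative breast cancer cell line. They are 10 of 64083 genes with a basic transcription start site (TSS) in GENCODE release 44 lifted to GRCh37 (hg19), and all 10 are annotated as long non-coding RNAs. The genes were chosen by name, with the position, width, rank and E-box content of their Myc peaks already known, so those measures are given as descriptions without a test. Occupancy was measured by Myc ChIP-seq in the parental line and in TKO cells, from which the gene for thioredoxin interacting protein, TXNIP, had been deleted by CRISPR/Cas9. Each of the 2 cell lines had 2 Myc libraries, described as biological replicates, and 1 input chromatin sample. TKO clones were grown from single cells, and the labels do not say whether both TKO libraries came from the same clone, so clone and knockout cannot be told apart. Peak lists of a transcription factor do not measure expression, so neither the cell line nor the loss of TXNIP could be checked in them.

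snoRNA host genes are transcribed by RNA polymerase II, and their introns are processed into snoRNAs that guide the modification of ribosomal RNA. Box C/D snoRNAs guide ribose methylation, and box H/ACA snoRNAs guide the conversion of uridine to pseudouridine. The spliced host RNA of several of these genes carries little or no coding capacity, and many host transcripts begin with a 5′ terminal oligopyrimidine (TOP) tract, as ribosomal protein mRNAs do. Myc, as a heterodimer with MAX, binds the E-box CACGTG and promotes the expression of genes for ribosome production. By the RefSeq gene table of GRCh38, SNHG1 holds 8 box C/D snoRNA genes, ZFAS1 holds 3, SNHG5 holds 2 and SNHG6 holds 1. GAS5 holds 10 box C/D genes and 1 box H/ACA gene. SNHG3 and SNHG7 each hold 2 box H/ACA genes, SNHG8 and SNHG15 each hold 1, and SNHG12 holds 3 box H/ACA genes and 1 box C/D gene.

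The DNA under the summits is shown first for 6 members, 4 with an E-box at or beside the summit and 2 without, to show where an E-box lies and where there is none. Each line gives the 201 bases of GRCh37 centred on the summit in TKO replicate 2, 5′ to 3′ on the strand of the gene. Capitals mark CACGTG, the E-box, and CACGCG, a variant of it, on either strand. SNHG15, SNHG7, SNHG8 and SNHG5 are the 4 with CACGTG in the window of this library. In the other libraries the E-box of SNHG8 was 119.5 to 197.5 bp from the summit. That of SNHG5 was 132.5 bp away in parental replicate 2. Windows of this size centred on those summits would not hold it. SNHG1 and GAS5 are among the most strongly bound members and have none in the window.
SNHG15, chr7:45026015-45026215: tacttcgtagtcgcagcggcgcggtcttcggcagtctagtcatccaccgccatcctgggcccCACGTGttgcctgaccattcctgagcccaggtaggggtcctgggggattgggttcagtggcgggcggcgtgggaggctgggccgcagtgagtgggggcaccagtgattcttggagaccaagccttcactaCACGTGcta
SNHG7, chr9:139622605-139622805: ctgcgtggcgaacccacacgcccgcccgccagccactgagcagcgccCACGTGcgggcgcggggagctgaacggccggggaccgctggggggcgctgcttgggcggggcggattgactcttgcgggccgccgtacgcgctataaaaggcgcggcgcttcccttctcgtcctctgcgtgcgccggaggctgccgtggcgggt
SNHG8, chr4:119199996-119200196: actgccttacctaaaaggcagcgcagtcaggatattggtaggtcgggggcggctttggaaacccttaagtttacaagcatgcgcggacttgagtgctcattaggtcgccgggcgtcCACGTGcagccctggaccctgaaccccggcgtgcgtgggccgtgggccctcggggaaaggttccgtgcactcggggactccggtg
SNHG5, chr6:86388946-86389146: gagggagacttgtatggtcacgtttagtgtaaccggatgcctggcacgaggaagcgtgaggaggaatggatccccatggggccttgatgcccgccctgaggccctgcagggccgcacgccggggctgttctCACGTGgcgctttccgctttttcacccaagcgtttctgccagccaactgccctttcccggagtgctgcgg
SNHG1, chr11:62623363-62623563: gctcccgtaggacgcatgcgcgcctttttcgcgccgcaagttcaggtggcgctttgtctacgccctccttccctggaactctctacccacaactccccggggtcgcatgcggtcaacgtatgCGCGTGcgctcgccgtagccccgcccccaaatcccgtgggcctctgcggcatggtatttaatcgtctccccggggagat
GAS5, chr1:173836918-173837118: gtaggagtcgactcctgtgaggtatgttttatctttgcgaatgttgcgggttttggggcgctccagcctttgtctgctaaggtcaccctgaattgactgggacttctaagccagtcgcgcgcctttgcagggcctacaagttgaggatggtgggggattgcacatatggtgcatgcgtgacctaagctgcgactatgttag
The strand of all these genes is minus except that of SNHG8, which is plus. The summit window of SNHG15 held both of its E-boxes, one on either side of the summit, and that of SNHG1 held 1 CACGCG but no CACGTG.

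The first 20 bases of the GAS5 and ZFAS1 transcripts are shown because they carry a TOP start, defined as a C followed by at least 4 further pyrimidines from the first base. Capitals mark the unbroken pyrimidine run at the annotated canonical start, and the strand is minus for GAS5 and plus for ZFAS1.
GAS5, chr1:173837108-173837127: CTTTTCgaggtaggagtcga
ZFAS1, chr20:47895179-47895198: CTTTCgcgtctgcggtgccc
GAS5 began with 6 pyrimidines and ZFAS1 with 5. Such a start was found at 2.96% of 55051 genes, 2.79% of 18702 long non-coding RNA genes and 13.0% of 423 protein-coding genes that hold an annotated snoRNA. GAS5 and ZFAS1 are shown as examples. Over the members, 3 of 10 canonical starts met this definition, SNHG12 with 5 pyrimidines besides these, and the others did not. The annotated start need not be the one most used in these cells.

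All 10 promoters had a Myc peak in TKO cells and 9 of 10 in parental cells. A gene was called bound in a library when a peak summit lay within 1 kb of one of its basic TSSs, and it was represented by its peak of highest fold. Fold is the ratio that MACS2 reports of scaled summit reads to local background reads, with 1 added to each. The members bound numbered 9 in each parental library and 10 in each TKO library. Over all gene types, 5.34% of genes were bound in parental replicate 1, 5.80% in parental replicate 2, 22.0% in TKO replicate 1 and 22.1% in TKO replicate 2. Among long non-coding RNA genes the shares were 4.06%, 4.86%, 18.0% and 18.1% in the same order. With equal numbers of peaks, the top of each list by fold, the mean number of members bound was 8 in parental and 7.5 in TKO, so the order of the lines by this count depends on the length of the lists. Since the members were chosen with their peaks known, nothing is read from the excess. SNHG6, host of a box C/D snoRNA, was the member without a parental peak, and none lay within 5 kb of its TSSs in either parental library. The lists hold only peaks past the caller's threshold, and the weakest parental peaks of any gene had 0.492 and 0.451 RPM (reads at the summit per M reads of the library), so an absent peak is no measurement of absent binding.

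Summit reads were recovered from the deposited fold and p-value of each peak and divided by the recovered depth of the library. Parental replicates 1 and 2 had a depth of 26.4 and 22.2 M reads, and TKO replicates 1 and 2 of 19.9 and 13.0 M. The lists held 3720, 5719, 27213 and 25887 peaks in that order, so a given percentile stands for different ranks in the 2 cell lines. Member summits rested on 20 to 222 reads. The smallest, in SNHG5 in parental replicate 2, and the 26 reads of SNHG3 in each parental library have the widest relative counting error. For SNHG3 in parental replicate 1, 0.984 RPM had an exact Poisson 95% interval of 0.643 to 1.44. These intervals cover counting error only.

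SNHG15 (chr7:45022618-45026560, minus strand), host of the box H/ACA snoRNA SNORA9, had the strongest summit among the members. It held 5.03 and 5.77 RPM in parental replicates 1 and 2 and 11.1 and 15.0 in TKO replicates 1 and 2. These came from 133, 128, 222 and 195 reads. The lower TKO value was above the higher parental one, and the exact Poisson 95% intervals of the single libraries, 4.21 to 5.96 and 4.81 to 6.86 in parental and 9.71 to 12.7 and 12.9 to 17.2 in TKO, did not overlap between the cell lines. Such intervals did overlap between the lines at SNHG3 and ZFAS1. At SNHG3 they reached 1.72 RPM in parental replicate 2 and began at 1.49 in TKO replicate 2. At ZFAS1 they reached 2.71 RPM in parental replicate 1 and began at 2.65 in TKO replicate 2. The share of all genes without such overlap was not counted, so nothing particular to SNHG15 is read from it. The SNHG15 ratio of TKO to parental, 2.41, lay at percentile 40.0 of the 2598 genes with a promoter peak in all 4 libraries. By fold, at 18.7, 21.0, 42.4 and 48.1 in the same order, the peak ranked 15 of 3720, 8 of 5719, 4 of 27213 and 2 of 25887. Its 4 summits lay within 15 bp of each other, in an intron of the gene and 440 to 455 bp downstream of the canonical TSS. One E-box (chr7:45026148-45026153) was centred 30.5 to 45.5 bp upstream of the summits. Another (chr7:45026018-45026023) was centred 84.5 to 99.5 bp downstream of them.

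SNHG7 (chr9:139615818-139622636, minus strand), host of the box H/ACA snoRNAs SNORA17A and SNORA17B, had the next highest rank by fold. Its summit held 2.61 and 2.07 RPM in parental and 5.06 and 6.75 in TKO. The groups did not overlap. The fold of 18.1, 13.7, 29.2 and 31.8 placed the peak at ranks 18, 54, 57 and 28 of the lists in that order. Local background at this summit was the lowest of any member in TKO, 1.86 times the genome average in each TKO library and 1.95 times in each parental one. The summits lay 29 to 71 bp upstream of the TSS, and an E-box (chr9:139622753-139622758) was centred 48.5, 58.5, 90.5 and 50.5 bp further upstream in parental replicates 1 and 2 and TKO replicates 1 and 2. That E-box was not wholly within 50 bp of any of these summits, so it is not counted among the E-boxes at the summit below. TKO cells had 2 weaker promoter peaks in each library besides, with 0.953 to 1.40 RPM, that the parental lists lacked.

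SNHG8 (chr4:119199858-119206471, plus strand), host of SNORA24, held 2.16 and 1.62 RPM in parental and 5.67 and 4.91 in TKO. Both TKO values were above both parental values. Its summits moved over 179 bp of an exon between libraries, and in TKO replicate 2 alone the summit lay close to the E-box (chr4:119200112-119200117), whose centre was 18.5 bp away. In the other 3 libraries the same E-box was 119.5 to 197.5 bp downstream. SNHG3 (chr1:28832492-28837404, plus strand), host of SNORA73A and SNORA73B, had the lowest mean of the members in both lines. It held 0.984 and 1.17 RPM in parental and 2.26 and 2.22 in TKO. Parental replicate 1 had 2 SNHG3 promoter peaks of equal fold and 26 reads each, 193 bp upstream and 137 bp downstream of the TSS. The upstream one represents the gene here, whereas the summit of parental replicate 2 lay 88 bp downstream. With that choice the SNHG3 summits spread over 281 bp. RCC1 has a TSS within 1 kb of every summit, and the peak cannot be given to one gene of this pair. TKO cells also had peaks inside SNHG3 at 1454 and 2660 bp from the TSS in replicate 1 and at 1434 and 2608 bp in replicate 2. The farther of each pair had its summit inside the SNORA73B gene (chr1:28835071-28835274). Neither parental list had a peak in the body of SNHG3 beyond 1 kb of the TSS.

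SNHG12 (chr1:28905050-28909644, minus strand), which hosts both classes of snoRNA, held 1.78 and 1.44 RPM in parental and 3.56 and 5.06 in TKO. The groups did not overlap, and the 2 TKO libraries differed from each other by more than the 2 parental ones did. Its summits lay 21 to 67 bp from a basic TSS but 1046 to 1189 bp downstream of the canonical one. The window within 50 bp of the summit held CACGCG in both parental libraries and in TKO replicate 2, and no CACGTG.

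Among the box C/D hosts, SNHG1 (chr11:62619450-62623425, minus strand) was bound most strongly. Its summit held 3.29 and 3.16 RPM in parental and 7.97 and 8.74 in TKO. The parental values were 3.22 ± 0.0970 and the TKO values 8.36 ± 0.546 RPM (SD, n = 2 each). Both TKO values were above both parental values, as at 98.4% of the 2598 genes with a promoter peak in all 4 libraries. By fold the peak stood at percentiles 86.0 and 47.0 in parental and 99.5 and 99.4 in TKO, where a percentile is the share of peaks in the same list with a lower fold. Local background was 6.97 and 10.5 times the genome average in parental and 4.20 and 4.35 times in TKO. Ranked by p-value instead, the parental peaks stood at percentiles 96.3 and 92.9. SNHG1 shares its promoter with SLC3A2, which encodes the heavy chain of several amino acid transporters, whose nearest TSS is on the opposite strand, 82 bp upstream of the canonical SNHG1 TSS. Myc summits in the 2 TKO libraries were 5 bp apart and lay 69 and 74 bp upstream of the canonical SNHG1 TSS, within 1 kb of both genes.

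GAS5 (chr1:173827697-173838020, minus strand) held 2.57 and 2.79 RPM in parental and 5.56 and 6.52 in TKO. The groups did not overlap. Its fold stood at percentiles 69.0 and 81.2 in parental and 97.9 and 98.1 in TKO, with local background of 6.97 and 6.46 times the genome average in parental and 4.20 and 4.35 times in TKO. The summits lay 64 to 148 bp downstream of the canonical TSS, in an intron. ZBTB37, a zinc finger protein gene, starts 93 bp upstream of that TSS on the opposite strand. In parental replicate 1 alone a separate peak was called 231 bp upstream of a TSS, at 1.74 RPM, with an E-box (chr1:173837326-173837331) at its summit.

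ZFAS1 (chr20:47894715-47916137, plus strand) held 2.08 and 1.62 RPM in parental and 4.21 and 3.60 in TKO. Both TKO values were above both parental values. Its rank by fold was the lowest of the members in the parental lists, at percentiles 7.88 and 2.36, against 77.2 and 77.6 in TKO. Its local background was among the highest of the members, at 10.5, 8.89, 7.80 and 5.43 times the genome average, and the median over promoter peaks of all genes was 3.49, 3.42, 2.62 and 2.72 in the same order. Ranked by p-value the peak stood at percentiles 53.6, 17.2, 93.9 and 89.7. ZNFX1, a gene of a zinc finger NFX1-type protein, starts 216 bp upstream of the canonical TSS on the opposite strand, within 1 kb of the summits. The 3 divergent pairs make 3 of 10 members with an opposite-strand TSS within 1 kb, beside 18.4% of all genes, 23.7% of long non-coding RNA genes and 51.5% of the genes bound in both TKO libraries.

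SNHG5 (chr6:86360209-86388650, minus strand), host of SNORD50A and SNORD50B, held 1.40 and 0.901 RPM in parental and 3.46 and 4.07 in TKO. The groups did not overlap, but the values do not all come from the same peak. This promoter had an upstream summit, 396 to 495 bp before the nearest TSS, and another 41 to 69 bp after it. The upstream peak had the highest fold in both parental libraries and TKO replicate 2, and the downstream one in TKO replicate 1. In that library the upstream peak had 83 reads and a fold of 9.26, and the downstream peak 69 reads and a fold of 12.0. At the upstream summit alone the values were 1.40 and 0.901 RPM in parental and 4.16 and 4.07 in TKO. Both TKO upstream summits had an E-box (chr6:86389010-86389015) within 50 bp, and the parental ones lay 97.5 and 132.5 bp from it. SNHG6 (chr8:67832796-67838633, minus strand) held 2.16 and 3.07 RPM in TKO replicates 1 and 2, from 43 and 40 reads, at percentiles 78.0 and 89.4 by fold. Its summits lay 49 bp apart in an exon.

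**Figure D1:**
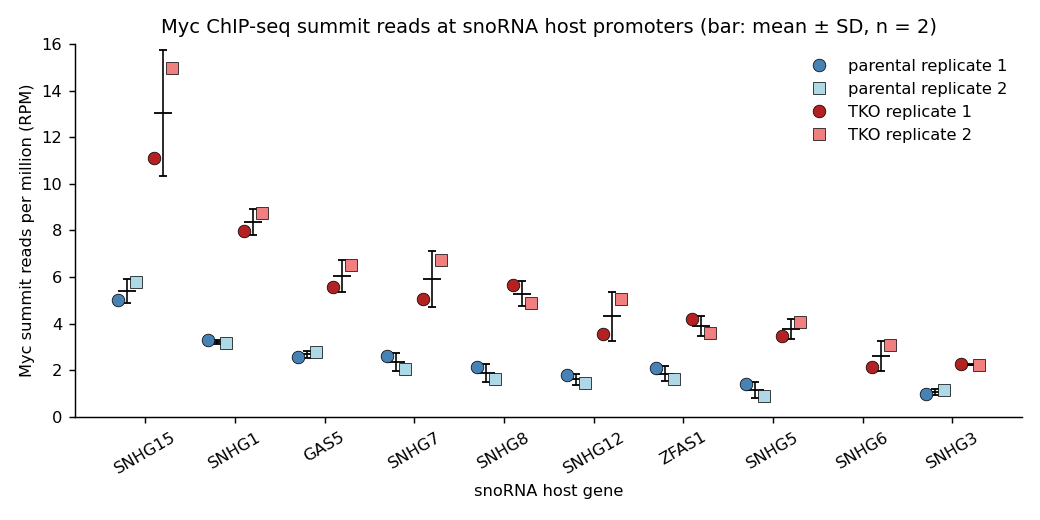
Myc summit RPM (vertical axis) at each of the 10 host genes, with 1 symbol per library and the mean ± SD of each cell line (n = 2) as a bar. In all 9 genes with values in both lines the TKO symbols sit above the parental ones, from 2.08-fold at SNHG3 to 3.27-fold at SNHG5, and SNHG6 has TKO symbols only.

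The comparison of the cell lines asked whether loss of TXNIP changes Myc occupancy at these promoters. In TKO cells, mean summit RPM were higher at 9 of 9 members with a peak in all 4 libraries, and the lowest TKO library was above the highest parental library at each. The same held for 2556 of the 2598 genes with a promoter peak in all 4 libraries, or 98.4%, so the members' count is near this background. The median ratio of TKO to parental was 2.52 over the members, with a range of 2.08 to 3.27, and 2.53 over the 2598 genes, with quartiles of 2.21 and 2.86. SNHG3, ZFAS1 and GAS5 lay toward the low end of all genes, at percentiles 17.0, 18.5 and 27.7 of the ratio. SNHG5 lay toward the high end at percentile 90.9, with a ratio of 3.27, and its value joins different summits, as given above. SNHG15 with 2.41, SNHG7 with 2.52, SNHG1 with 2.59, SNHG12 with 2.68 and SNHG8 with 2.80 lay between percentiles 40.0 and 70.3. For each of the 9 members p was 0.333 by the exact two-sided permutation test; groups of 2 can give none smaller, so the design can pass no threshold of 0.05. Scaled by genome-average coverage in place of RPM, which also divides by the fragment extension length, the median ratio was 1.90 over the members and 1.92 over all genes.

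**Figure D2:**
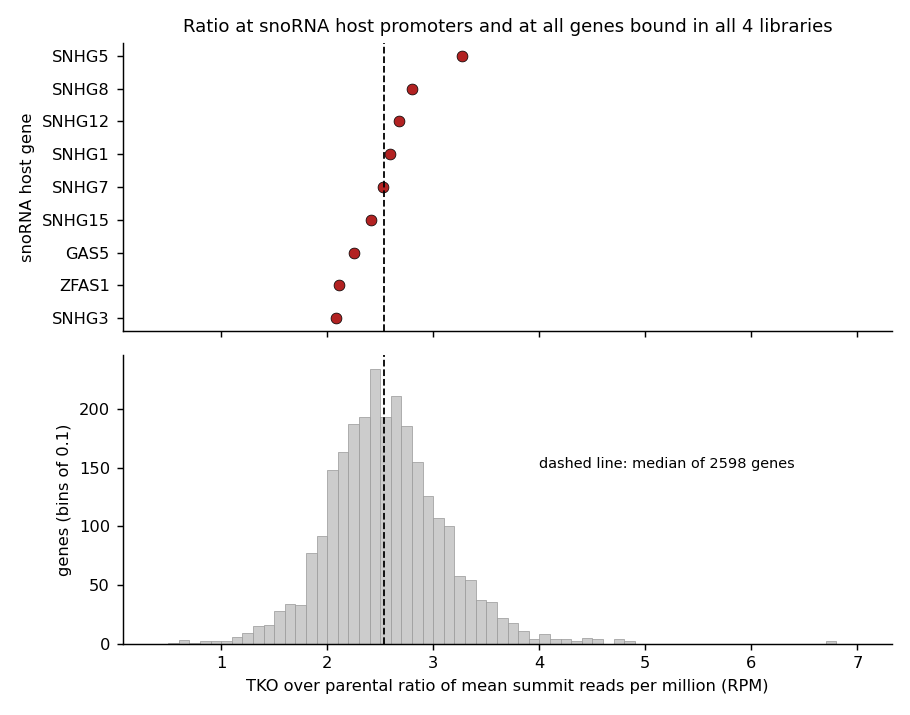
Ratio of mean summit RPM in TKO over parental cells (horizontal axis) for the 9 host genes bound in all 4 libraries (upper panel, 1 point per gene) and as a histogram of the 2598 genes bound in all 4 (lower panel), with the median of all genes, 2.53, as a dashed line. The host genes spread over 2.08 to 3.27, on both sides of the line.

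SNHG15, SNHG1 and GAS5 had the highest mean levels in both lines, though GAS5 overlapped SNHG7 in each. In TKO cells the order of the mean was SNHG15 with 13.0 ± 2.71, SNHG1 with 8.36 ± 0.546 and GAS5 with 6.04 ± 0.675 RPM (SD, n = 2). SNHG7 followed with 5.91 ± 1.19, SNHG8 with 5.29 ± 0.535, SNHG12 with 4.31 ± 1.06, ZFAS1 with 3.91 ± 0.429 and SNHG5 with 3.76 ± 0.428. The SNHG5 mean joins different summits. At its upstream summit alone, SNHG5 held 4.16 and 4.07 RPM in TKO, both above the ZFAS1 mean, so its place depends on the peak taken. SNHG6 with 2.61 ± 0.645 and SNHG3 with 2.24 ± 0.0224 were lowest. Values of neighbours in this order did not overlap between SNHG15 and SNHG1, between SNHG1 and GAS5, and between SNHG5 and SNHG6, and they overlapped at every other step. In parental cells SNHG15 with 5.40 ± 0.521, SNHG1 with 3.22 ± 0.0970 and GAS5 with 2.68 ± 0.156 again led, without overlap from the one to the next. There GAS5, with 2.57 and 2.79 RPM, did overlap SNHG7, with 2.61 and 2.07. SNHG5 with 1.15 ± 0.353 and SNHG3 with 1.08 ± 0.133 were lowest in parental cells and overlapped.

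Rank by fold differed widely between the members. The median percentile of the member peaks was 86.0 and 76.5 in parental replicates 1 and 2 and 97.9 and 97.4 in TKO replicates 1 and 2. Over all bound genes it was 56.9, 56.6, 69.4 and 69.5 in the same order, also higher in TKO. Over the bound genes among 20 other genes named SNHG it was 89.1, 84.7, 96.2 and 96.6, so a high rank was not particular to the members. SNHG15 and SNHG7 stood above percentile 99 in every library. SNHG8, SNHG12 and SNHG5 were at percentiles 96.1, 85.1 and 94.7 of parental replicate 1 and 51.9, 76.5 and 81.8 of parental replicate 2. Their TKO percentiles were 98.8 and 96.8, 97.8 and 98.8, and 94.0 and 84.1. SNHG3 stood at 10.8 and 14.2 in parental, 86.9 in TKO replicate 1 and 51.1 in TKO replicate 2. Fold is relative to local background, which differed between members by more than 2-fold in each library, and summit reads are not. The 3 members with the highest parental background were SNHG1, GAS5 and ZFAS1, and how far background sets their rank was not tested.

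**Figure D3:**
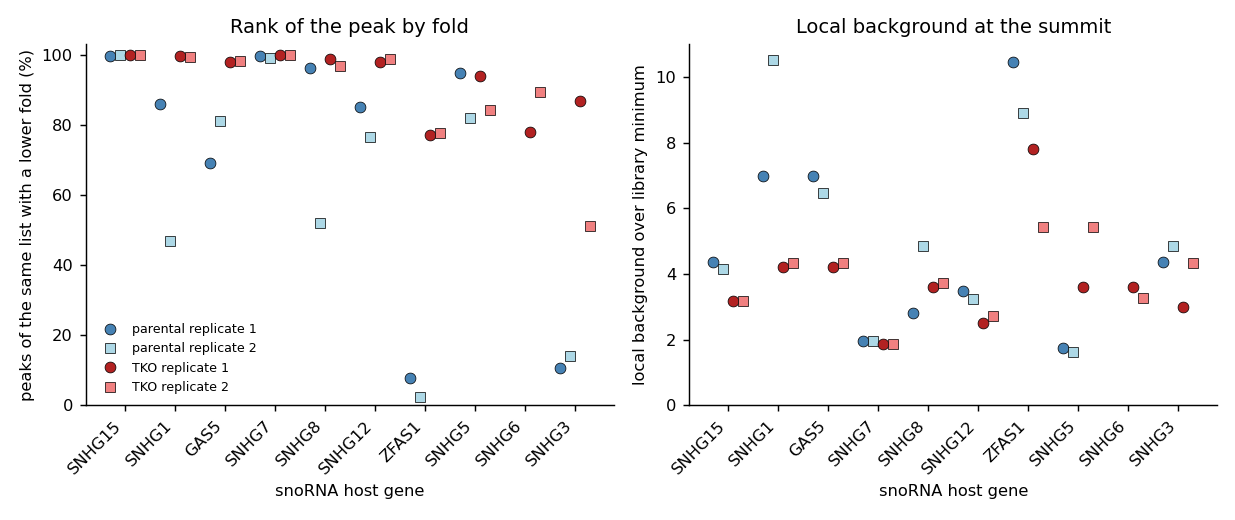
Left, share of peaks in the same list with a lower fold (percent) for each host gene, 1 symbol per library. Right, local background at the summit over the library minimum, which is its genome average. SNHG15 and SNHG7 are above 99 in every library, ZFAS1 and SNHG3 are below 15 in parental cells, and ZFAS1 has the highest background of the members in replicate 1 of each line.

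Member peaks were wide. Their median width was 502 and 538 bp in parental replicates 1 and 2 and 1174 and 1159 bp in TKO replicates 1 and 2, beside 234, 232, 380 and 399 bp over all promoter peaks. The median ratio of width, TKO over parental, was 2.35 over 9 members and 2.68 over the 2598 genes. SNHG3 had the largest ratio, 9.37, from 163 and 153 bp to 1692 and 1268 bp, and SNHG15 the smallest, 1.46, from 905 and 820 bp to 1332 and 1189 bp. The 163 bp of SNHG3 are those of 1 of 2 separate peaks of parental replicate 1 (chr1:28832223-28832385 and chr1:28832562-28832752). The peak of TKO replicate 1 (chr1:28832002-28833693) covers both, so this ratio does not compare like peaks. Whether width moved apart from summit reads and extension length was not tested.

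Summits lay close to start sites. The median distance from the nearest TSS was 71 and 83 bp in parental and 43.5 and 101.5 bp in TKO, beside 127, 129, 171 and 169 bp over all bound genes. Among the peaks that represent a gene, the farthest inside the 1 kb window was that of SNHG5 in parental replicate 2 at 495 bp upstream, and among all promoter peaks that of SNHG7 in TKO replicate 1 at 790 bp upstream. The nearest peak outside was at SNHG15 in TKO replicate 1, 1265 bp downstream with 1.05 RPM, followed by those inside SNHG3. SNHG15 and SNHG7 had summits that stayed within 15 and 42 bp over 4 libraries, whereas those of SNHG1, SNHG3 and SNHG5 spread over 213, 281 and 736 bp. The spread of SNHG3 rests on which of 2 equal peaks was taken in parental replicate 1, and that of SNHG5 joins different peaks. For all genes bound in every library, the median distance between replicate summits was 35 bp in parental and 34 bp in TKO.

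**Figure D4:**
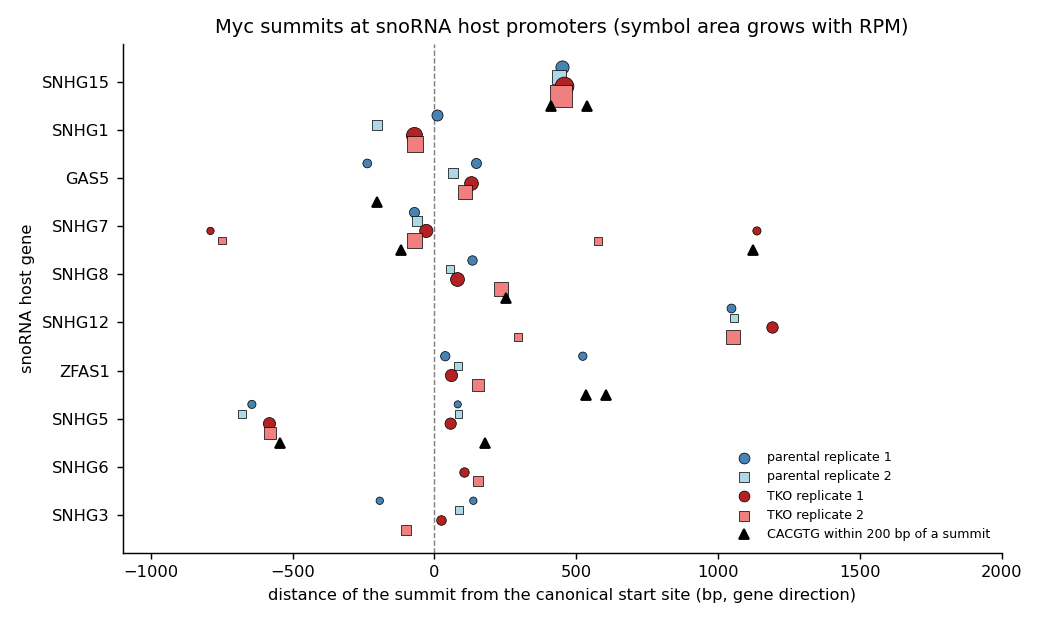
Position of every Myc summit within 1 kb of a basic TSS of each host gene, as distance from the canonical TSS in gene direction (bp, horizontal axis), with 1 symbol per library whose area grows with summit RPM, and black triangles for CACGTG within 200 bp of a summit. SNHG15 summits stack between 2 E-boxes, SNHG5 has separate upstream and downstream summits, and those of SNHG12 lie more than 1000 bp from the canonical TSS apart from 1 weak peak in TKO replicate 2.

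Between 1 and 3 members per library had an E-box at the summit. CACGTG within 50 bp of the summit, on either strand since the motif is its own reverse complement, was found at 1 of 9 members in each parental library and 1 of 10 in TKO replicate 1, each time SNHG15. In TKO replicate 2 it was found at 3 of 10, SNHG15, SNHG8 and SNHG5. Only the peak of highest fold of each member was counted. Other promoter peaks of the members with such an E-box were those of GAS5 (1.74 RPM) and ZFAS1 (1.48 RPM) in parental replicate 1. In TKO replicate 1 they were the upstream peak of SNHG5 (4.16 RPM) and a weaker peak of SNHG7 (1.40 RPM). Of all promoter peaks, 22.0% had one in parental replicate 1, 18.3% in parental replicate 2, 8.16% in TKO replicate 1 and 7.30% in TKO replicate 2. CACGCG on either strand was found at 1 of 9 members in each parental library, SNHG12 in both, and at 2 of 10 in each TKO library, SNHG1 and SNHG3 in replicate 1 and SNHG1 and SNHG12 in replicate 2. Over all promoter peaks its share was 14.6%, 12.8%, 8.67% and 8.44%. CATGTG was found at SNHG1 in parental replicate 2, CCGGAAGT, a motif of ETS factors, at SNHG3 in TKO replicate 1, and TGACTCA, a motif of AP-1, at none. Median GC content within 100 bp of the member summits was 56.2% and 54.7% in parental and 59.5% and 63.2% in TKO, beside 63.7%, 62.7%, 63.2% and 64.2% over all promoter peaks.

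Other genes of the snoRNA pathway were bound as well. Of 20 other genes named SNHG, 13, 12, 16 and 16 were bound in parental replicates 1 and 2 and TKO replicates 1 and 2, and 12 were bound in all 4 libraries. Over all long non-coding RNA genes the shares bound were 4.06%, 4.86%, 18.0% and 18.1%. The median ratio of those 12 was 2.58. SNHG17, SNHG9 and SNHG26 ranked highest, and SNHG17 held 4.69, 4.91, 11.3 and 12.3 RPM, close to the levels at SNHG15. SNHG32, SNHG31 and SNHG22 ranked lowest among those bound in TKO, the latter pair without a parental peak, and SNHG14, SNHG27 and SNHG28 were bound in no library.

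Proteins that build snoRNA particles were examined by a list of 16 genes, of which 12, 10, 16 and 16 were bound in the same order. Over all protein-coding genes 12.2%, 12.9%, 48.9% and 49.6% were bound. DKC1, the pseudouridine synthase of box H/ACA particles, held 0.984, 1.85, 5.16 and 4.83 RPM. GAR1, another box H/ACA protein, held 2.91, 2.25, 6.02 and 6.83, and NOP58, a core box C/D protein, held 2.54, 2.61, 6.62 and 7.59. These 3 ranked highest of the list by fold in TKO. The assembly factors RUVBL2, SHQ1 and ZNHIT3 ranked lowest and had a peak in TKO only. The median ratio over the 10 genes of the list bound in all 4 libraries was 2.54.

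Genes that hold an annotated snoRNA on the same strand in the GENCODE models were counted as hosts by annotation, a list that misses many, since 6 of the 10 members hold none in those models. Of 108 other long non-coding hosts, 17, 18, 44 and 44 were bound, beside the 4.06%, 4.86%, 18.0% and 18.1% of all long non-coding RNA genes, with SNHG17, LINC01618 and DANCR ranked highest. This list holds 16 of the 20 SNHG genes above, 80% of those and 14.8% of the 108, so its count is not separate from theirs. LINC01618 and DANCR share a peak, with 2.04, 1.44, 4.81 and 5.98 RPM. LINC02245 and 2 unnamed genes were the lowest bound in TKO. Of 424 protein-coding hosts, 123, 123, 288 and 284 were bound, beside 12.2%, 12.9%, 48.9% and 49.6% of all protein-coding genes, with RPL32, a ribosomal protein gene, GNL3, which encodes nucleostemin, and SNX5, a sorting nexin gene, ranked highest and CAMK1D, ATP2B4 and PTPN4 lowest. By the RefSeq table, which gives no strand and was used after the data were seen, 16, 16, 22 and 22 of 27 other long non-coding hosts and 116, 113, 200 and 205 of 257 protein-coding hosts were bound. The 27 include 18 of the 20 SNHG genes, and 163 of the 257 are also among the 424.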

How the data were processed

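Myc ChIP-seq was analysed in 4 of 6 samples, 2 parental and 2 TKO libraries of MDA-MB-231 cells, grouped by their titles. Peak lists of the 2 input samples were not analysed here. Per the labels, the authors aligned single-end reads to hg19 with Novoalign 3.08.02 and called peaks with MACS2 2.1.1.20160309, once per library against input. The methods give a cutoff on p and the study's text also one on q. The lowest deposited −log10 q-value was 2.03 to 2.07, as a threshold on q gives. The handling of duplicate reads is not stated. The deposited columns hold the authors' fold enrichment, a ratio, their −log10 p-value and −log10 q-value, and a score made from the latter. Position and summit columns were also used.

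MACS2 fold and p-value were solved together for whole summit reads and local background, within 0.002 on the −log10 scale, which matched 100% of peaks. Parental folds required a treatment scale of 0.837 and 0.997. Depth was taken from the lowest background, the narrowest peak of each list as extension length (140, 151, 182 and 201 bp) and an assumed genome size of 2700000000, so ratios between lines rest on these lengths. The recovery was tested on simulated data. Ratios are of group means. Start sites and sequence came from GENCODE release 44 on GRCh37. Genes were compared by the exact permutation test, with shares over all genes as background.

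The named genes were all 10 members, opposite-strand partners, and the 3 highest and 3 lowest by mean TKO percentile of each list. Members and lists were chosen with earlier results of these data known. The start sequences of the other members are not reported here. Alternatives were TSS windows of 500 bp and 3 kb, a −log10 q or fold of at least 5, equal numbers of peaks, TSSs of all transcripts, each library left out, a coverage scale, a replicate block, the nearest peak, ranks by p and motif windows of 25 and 100 bp. Calculations used Python 3.11.15, numpy 2.4.6, pandas 2.3.3, scipy 1.17.1, pysam 0.24.0 and matplotlib 3.10.9.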

Additional observations from a re-analysis of the deposited data

How the results depend on the processing

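Of the summary results under the alternatives, 80 stayed within the spread between libraries, or within 1.5 times for a count, and 10 moved. With equal numbers of peaks the mean count of members bound was 8 in parental and 7.5 in TKO, against 9 and 10, which turns the order of the lines. No TKO to parental ratio changed direction, and the 111 ratios of single members under the alternatives ran from 1.59 to 4.36. The median TKO to parental ratio of 2.52 became 1.90 on the coverage scale and ranged from 2.21 to 2.71 when each library was left out, with the lowest value without TKO replicate 2. The median TKO percentile by fold of 97.7 was 97.2 with a −log10 q of at least 5, 96.2 with a fold of at least 5, 89.8 with equal numbers of peaks and 98.1 when ranked by p-value. The median width ratio of 2.35 was 2.05 with a fold of at least 5 and 1.86 with equal numbers of peaks, both of which use fewer peaks. The mean number of members with an E-box at the summit in TKO, 2, became 0.5 with a motif window of 25 bp and 3 with one of 100 bp. It ranged from 1 to 3 when a library was left out, with 1 without TKO replicate 2. With the replicate block the median ratio was 2.51. Whether same-numbered libraries were handled together is not stated in the titles. Deviations of same-numbered libraries correlated by 0.0840 over 2598 genes, and the block changed no direction. Depth limits the weakest summits, SNHG5 and SNHG3 in parental cells, most.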
